A study of Mus musculus with 10 samples.

Results

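Pvalb, Syt2, Cplx1 and Nefh are genes of fast-spiking interneurons that are known to need the coactivator PGC-1α in parvalbumin neurons, and they were followed here through every array probe that carries their RefSeq accessions. They are 4 of the 23462 genes that could be named on the array, and they were read by 6 of its 56605 distinct probes, with 1 probe each for Pvalb and Cplx1 and 2 probes each for Syt2 and Nefh. Total RNA of the mouse hippocampus was measured on 10 one-colour Agilent arrays. The titles of 5 arrays read neuron without PGC-1α, taken here as PGC-1αf/f. Those of the other 5 read neuron with PGC-1α, taken here as nPGC-1α, and these genotype names serve as labels below. All mice were of C57BL/6 background, were labelled as male and were 12 weeks old. Both groups carried, at Rosa26, a PGC-1α transgene behind a floxed PGK-neo-STOP cassette. The PGC-1αf/f mice lacked Cre, so that the cassette stayed in place, while the nPGC-1α mice also carried Eno2-Cre, a transgene driven by the neuron-specific enolase promoter, which removes the cassette and also turns on IRES-eGFP. Eno2-Cre is active in neurons of many types and is not restricted to interneurons. The labels do not say that each array came from a separate mouse, so p-values measure the spread between these samples, which may be partly technical.

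Parvalbumin interneurons are inhibitory cells that fire at high rates and time the output of hippocampal pyramidal cells. In the forebrain PGC-1α is enriched in these and other inhibitory cells, and it works by joining transcription factors such as the oestrogen-related receptors, NRF1 and GABP at the promoters of mitochondrial and neuronal genes. Pvalb encodes parvalbumin, a cytosolic calcium buffer. Syt2 encodes synaptotagmin 2, a fast calcium sensor of vesicle release, and Cplx1 encodes complexin 1, which binds the SNARE complex that fuses vesicles. Nefh encodes the heavy neurofilament subunit of large axons. The comparison asked whether hippocampal RNA of these genes differed when PGC-1α was overexpressed in neurons.

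Promoter sequences of 3 of the 4 genes were found in the RefSeq table of build GRCm38.p6, as the 250 bases before each annotated start, and 3 of the 5 windows are shown because Pvalb names the cell type and Syt2 has 2 annotated starts and 2 probes. Each is written 5′ to 3′ on the strand of the gene, and capitals mark a match to a searched motif. The motifs, searched on both strands, were AAGGTCA, which oestrogen-related receptors bind, GCATGCG, the core of the sequence that NRF1 binds, and CCGGAAG, which GABP and other ETS factors bind.
Pvalb, chr15:78206401-78206650, minus strand: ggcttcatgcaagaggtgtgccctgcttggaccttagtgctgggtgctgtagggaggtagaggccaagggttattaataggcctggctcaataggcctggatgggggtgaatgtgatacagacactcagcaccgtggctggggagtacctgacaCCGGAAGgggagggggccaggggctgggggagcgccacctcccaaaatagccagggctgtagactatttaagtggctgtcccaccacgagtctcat
Syt2 first start, chr1:134646362-134646611, plus strand: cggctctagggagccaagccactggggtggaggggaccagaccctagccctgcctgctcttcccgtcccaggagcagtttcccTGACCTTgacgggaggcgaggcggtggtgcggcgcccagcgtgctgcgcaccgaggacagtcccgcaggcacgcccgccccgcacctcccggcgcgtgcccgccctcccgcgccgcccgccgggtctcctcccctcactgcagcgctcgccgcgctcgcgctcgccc
Syt2 second start, chr1:134709050-134709299, plus strand: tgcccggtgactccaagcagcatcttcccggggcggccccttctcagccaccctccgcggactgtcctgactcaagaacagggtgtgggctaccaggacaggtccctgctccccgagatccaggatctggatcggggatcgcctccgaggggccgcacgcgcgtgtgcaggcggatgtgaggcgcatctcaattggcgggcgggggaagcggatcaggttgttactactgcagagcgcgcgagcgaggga
The Pvalb window held the ETS motif on the gene's strand 96 bases before the start, and the first Syt2 window held the oestrogen-related receptor motif on the opposite strand, as TGACCTT, 167 bases before the start. The second Syt2 window, the second Pvalb window and the Cplx1 window held none of the 3 motifs. Of 32851 promoter windows of this length, 4.08% held AAGGTCA, 3.02% held GCATGCG and 6.91% held CCGGAAG, so such matches are not rare. A match is a description of the letters and not a binding site. The arrays do not show which start the measured Syt2 RNA came from.

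Levels are given as the log2 of the processed signal minus the log2 of the array's 75th percentile, so that 0 marks the 75th percentile of the array and 1 unit is a doubling. A difference is the nPGC-1α mean less the PGC-1αf/f mean on this log2 scale, given ± its standard error (SE) from limma. Feature Extraction marks a spot as well above background, and a probe was tested where all 5 arrays of at least 1 group had this mark. This left 39142 probes of 17597 named genes, including all 6 probes of the 4 genes. The share of gene spots with the mark was 74.5% to 81.5% in the PGC-1αf/f group and 67.2% to 73.4% in the nPGC-1α group. Y-linked signal was read from 5 probes, which covered Ddx3y, Kdm5d and Uty. On 4 arrays, 4 of the 5 probes had the mark. These were 1 array of the PGC-1αf/f group, replicate 1, and 3 of the nPGC-1α group, replicates 1, 3 and 5. On the other 6 arrays 0 of the 5 probes had it, although all mice were labelled as male. The arrays were named by their labels throughout.

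The targeted gene, Ppargc1a, which encodes PGC-1α, was examined first. Its level by probe A_51_P279038 was 2.34, 2.19, 2.13, 2.19 and 2.15 on the arrays labelled PGC-1αf/f and 2.29, 2.23, 2.06, 2.12 and 2.31 on the arrays labelled nPGC-1α. The groups overlapped. The difference was 0.00 ± 0.09, with a 95% interval of -0.18 to 0.19 (limma adjusted p = 0.99). A second probe, A_55_P2745394, was marked as an outlier spot on 5 arrays and was not tested, and with those spots kept its difference was 0.09 ± 0.10. Ppargc1a RNA by these probes therefore did not set the arrays labelled nPGC-1α apart. The authors reported higher PGC-1α by Western blot in nPGC-1α mice, and eGFP in neurons of their brain sections. Those are measures of protein, and the probes read RNA. Whether either probe reads the transgene is not known from the files used here, and every direction below rests on the labels.

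Pvalb RNA differed between the groups by less than the spread among the arrays. The level by probe A_55_P2114437 was 2.42, 2.60, 2.46, 2.46 and 2.38 on the PGC-1αf/f arrays and 2.57, 2.54, 2.38, 2.41 and 2.48 on the nPGC-1α arrays, in the order of the replicate numbers. The highest array was PGC-1αf/f replicate 2 and the lowest was nPGC-1α replicate 3, so the groups overlapped. The means were 2.46 ± 0.08 and 2.48 ± 0.08 (SD, n = 5 each), a difference of 0.01 ± 0.08 (limma adjusted p = 0.963, exact permutation p = 0.833). The 95% interval of the difference was -0.17 to 0.19, that is, 0.892- to 1.14-fold. The probe was well above background on all 10 arrays. In whole hippocampal tissue fewer cells of a type and less RNA per cell cannot be told apart, here and in all results that follow.

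Nefh RNA also overlapped between the groups by both of its probes. By probe A_55_P2053181 the level was 2.00, 1.90, 2.05, 2.18 and 2.17 on the PGC-1αf/f arrays and 2.31, 2.09, 1.93, 1.96 and 2.07 on the nPGC-1α arrays. The nPGC-1α arrays held the highest value, in replicate 1, and the PGC-1αf/f arrays the lowest, in replicate 2. The difference was 0.01 ± 0.10, with a 95% interval of -0.21 to 0.23 (limma adjusted p = 0.972, exact permutation p = 0.921). By probe A_51_P300657 the level was 1.74, 1.82, 1.99, 2.06 and 2.13 against 2.09, 2.14, 1.86, 1.86 and 2.07. On this probe PGC-1αf/f replicates 1 and 2 were the lowest arrays and nPGC-1α replicate 2 was the highest, and the groups overlapped. The difference was 0.06 ± 0.11, with a 95% interval of -0.18 to 0.29 (limma adjusted p = 0.857).

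Cplx1 was measured on fewer arrays, because its only probe, A_52_P465980, was marked as an outlier spot on replicates 1 and 2 of both groups. On the remaining arrays, replicates 3, 4 and 5, the level was 3.14, 3.31 and 3.42 in the PGC-1αf/f group and 3.01, 3.21 and 3.44 in the nPGC-1α group. The ranges overlapped, and replicate 5 was the highest in both groups. The difference was -0.07 ± 0.16, with a 95% interval of -0.44 to 0.30, or 0.737- to 1.23-fold (limma adjusted p = 0.882). The exact permutation p was 0.8, where 3 against 3 arrays cannot go below 0.1. With the outlier spots kept, the 4 further values were 3.24 and 3.16 for PGC-1αf/f and 3.22 and 3.30 for nPGC-1α, and the difference over 10 arrays was -0.02 ± 0.10. The Cplx1 difference was 0.01 once the arrays were quantile-normalised and 0.07 in the log2 table of the authors, which also holds values for the 4 outlier spots, so no direction is given for it.

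**Figure D1:**
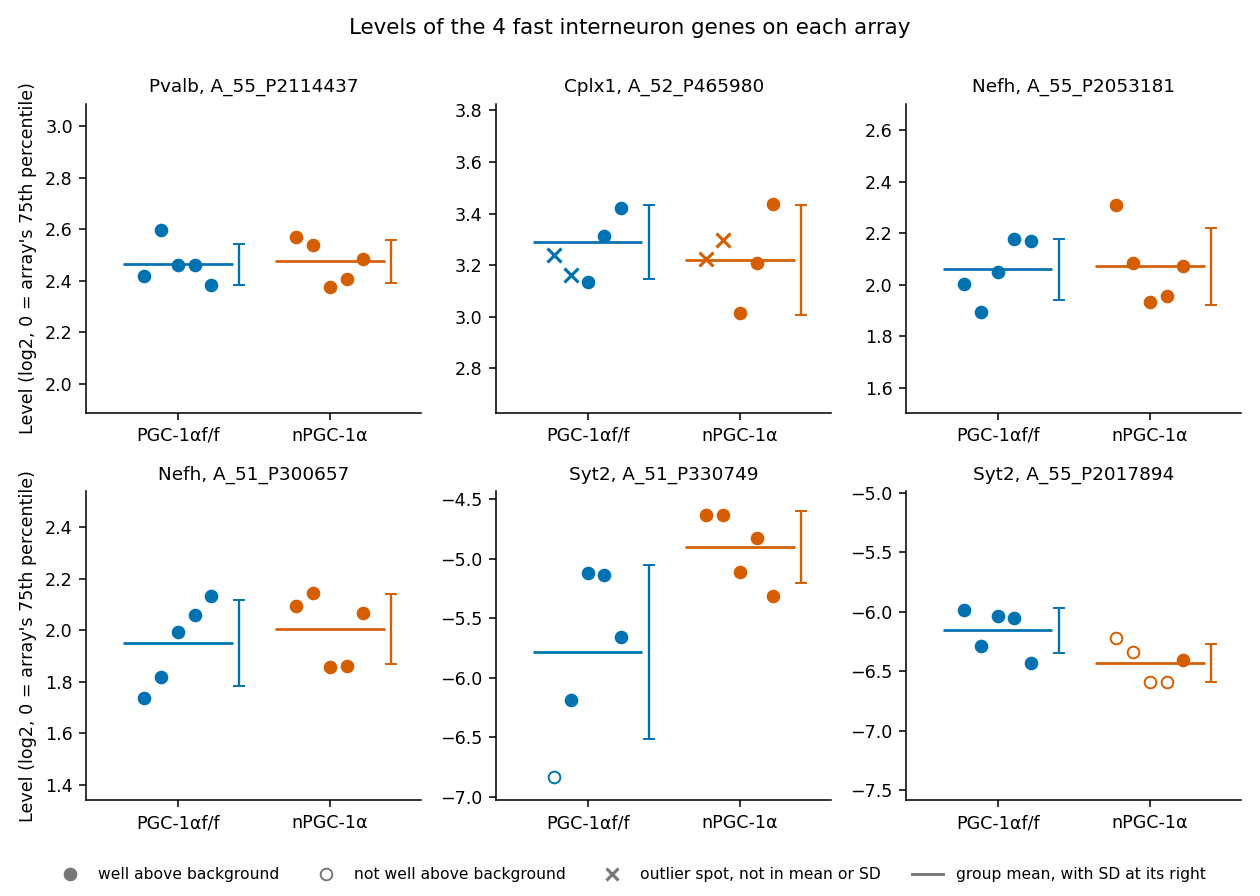
Levels of the 6 probes of Pvalb, Cplx1, Nefh and Syt2 on each array, as log2 relative to the array's 75th percentile, with PGC-1αf/f in blue and nPGC-1α in orange, replicates 1 to 5 from left to right, lines at the group means and bars of 1 SD. The groups overlap on all 6 probes. The nPGC-1α mean of the first Syt2 probe is -4.90 against -5.79 and that of the second -6.43 against -6.16, with open points for arrays not well above background. The vertical axes differ in position, and those of Syt2 span more units.

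Syt2 was read by 2 probes near background, and each passed the filter on dim probes only through the group in which it read higher. The values, intervals and p-values of both probes are therefore given as a description, and no difference is read from them. Both were dim, with processed signals of 34.1 to 199.7 units, on arrays whose 75th percentile was 3883 to 5253 units. By probe A_51_P330749, which stood for the gene because its mean level was the higher, the level was -6.83, -6.18, -5.12, -5.14 and -5.66 on the PGC-1αf/f arrays and -4.63, -4.63, -5.11, -4.82 and -5.31 on the nPGC-1α arrays. The nPGC-1α arrays lay in the upper part of the range, but nPGC-1α replicate 5 was below PGC-1αf/f replicates 3 and 4, so the groups overlapped. The lowest value, PGC-1αf/f replicate 1, was the only one of the 10 not well above background. The difference was 0.88 ± 0.31, with a 95% interval of 0.20 to 1.57, which is 1.85-fold (limma unadjusted p = 0.0157, adjusted p = 0.302, exact permutation p = 0.0317). Without PGC-1αf/f replicate 1 it was 0.62 ± 0.24 (limma adjusted p = 0.441).

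The second Syt2 probe, A_55_P2017894, had levels of -5.98, -6.29, -6.04, -6.05 and -6.43 on the PGC-1αf/f arrays and -6.22, -6.34, -6.59, -6.59 and -6.40 on the nPGC-1α arrays. All 5 nPGC-1α values were below the PGC-1αf/f mean of -6.16 ± 0.19 (SD, n = 5), and the groups overlapped. This probe had the mark of a signal above background in all 5 PGC-1αf/f replicates but in 1 nPGC-1α replicate only, number 5. The difference was -0.27 ± 0.12, with a 95% interval of -0.53 to -0.01 (limma unadjusted p = 0.0408, adjusted p = 0.399, exact permutation p = 0.0556). On the other 4 nPGC-1α arrays this value is a signal not well above background, so no direction is given for this probe. Neither Syt2 probe passed an adjusted p of 0.05.

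The detection floor, taken as the lowest level of any probe well above background on an array, ranged from -7.51 to -6.56 in the PGC-1αf/f group and from -6.62 to -5.75 in the nPGC-1α group. With every value below the highest of these floors raised to it, the difference of the first Syt2 probe was 0.58, and that of the second was 0.00 because all of its values lay under that floor. After the normexp background correction with quantile normalisation the first probe differed by 0.35 (limma adjusted p = 1.00) and the second by 0.01. The mean of both probes on each array differed by 0.31 (exact permutation p = 0.151). The floor was higher on average on the nPGC-1α arrays, and its part in the Syt2 results was not tested beyond these values.

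**Figure D2:**
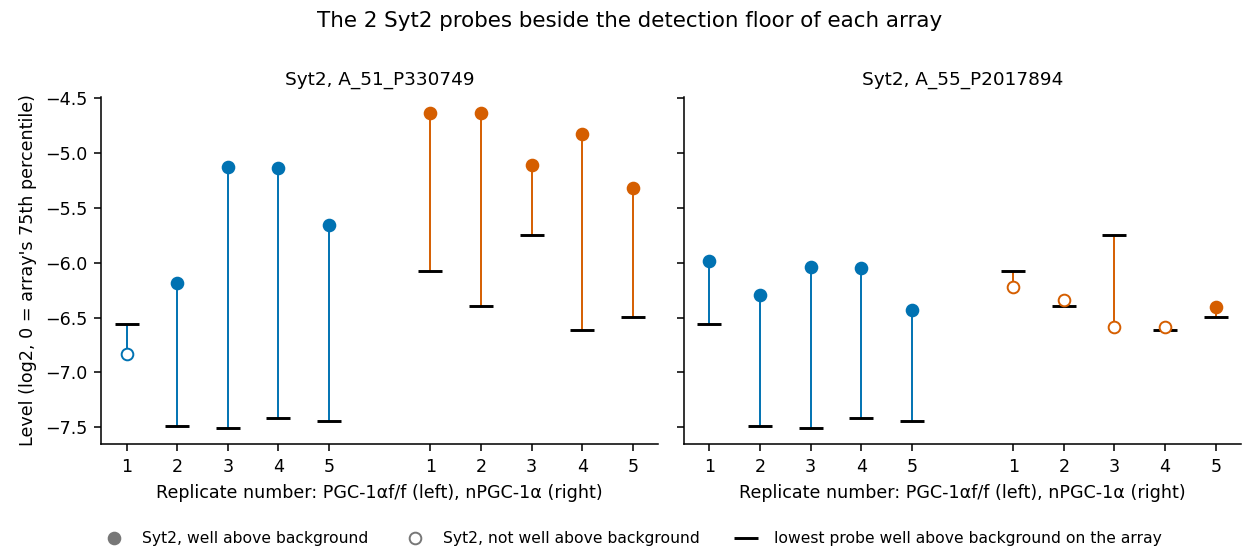
The 2 Syt2 probes on each array (points, log2 relative to the array's 75th percentile) beside the lowest level of any probe well above background on the same array (black marks), with PGC-1αf/f replicates at the left and nPGC-1α replicates at the right of each panel. The floors are at -7.51 to -6.56 for PGC-1αf/f and -6.62 to -5.75 for nPGC-1α, and the second probe lies near or below the floor on the nPGC-1α arrays.

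Over all 39142 probes, 1 (0.00255%) had an adjusted p under 0.05, and 4662 (11.9%) had an unadjusted p under 0.05. Of the 6 probes of the 4 genes, 0 passed the adjusted threshold in limma and the 2 of Syt2 had an unadjusted p under 0.05, each after passing the filter through the group where it was higher, so that nothing is read from their number or signs. By gene, with the probe of the highest mean level, 3.18% of 17597 genes were higher and 5.03% lower at an unadjusted p of 0.05. Of the 4 genes 1, Syt2, was higher and 0 were lower, from which nothing is read for the same reason. The median difference was 0.01 over the 4 genes and -0.02 over all 17597 genes.

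Relatives of the 3 families were read beside them. Syt1, the synaptotagmin of most forebrain synapses, differed by -0.03 ± 0.12 (limma adjusted p = 0.941), with a sign that changed to 0.11 after quantile normalisation. Cplx2, the complexin of many excitatory neurons, differed by -0.16 ± 0.13 (limma adjusted p = 0.657) by one probe and by -0.20 ± 0.10 (limma adjusted p = 0.454) by the other, on which all 5 nPGC-1α arrays were below the PGC-1αf/f mean. Nefl and Nefm, the light and medium neurofilament subunits that assemble with Nefh, differed by -0.11 ± 0.11 (limma adjusted p = 0.712) and by -0.06 ± 0.10 (limma adjusted p = 0.821). A second Nefm probe differed by 0.10, so the Nefm probes disagreed in sign. None of these 4 relatives passed either threshold in limma, and the second Cplx2 probe had an exact permutation p of 0.0476.

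**Figure D3:**
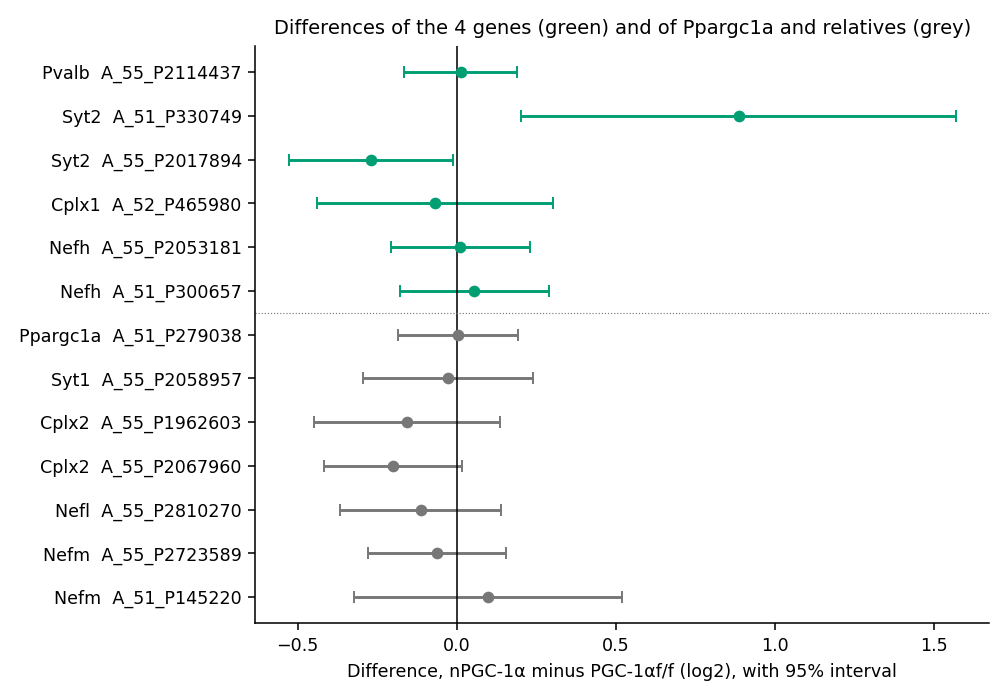
Differences between nPGC-1α and PGC-1αf/f arrays on the log2 scale, with limma's 95% confidence intervals, for the 6 probes of the 4 genes (green) and for Ppargc1a, Syt1, Cplx2, Nefl and Nefm (grey). Only the intervals of the 2 Syt2 probes leave out 0, at 0.20 to 1.57 and at -0.53 to -0.01, and neither has an adjusted p under 0.05. Each of these 2 probes passed the filter only through the group where it was higher, so no difference is read from these intervals.

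Other genes of fast-spiking cells were taken from a list of potassium and sodium channels, GABA synthesis and transport genes, developmental factors and perineuronal net genes. Of 23 listed, 21 were tested, with 1 higher, 0 lower and 20 past neither side of an unadjusted p of 0.05 in limma, and a median difference of 0.06. The higher one was Pthlh, a secreted peptide made by these interneurons, at 0.43 ± 0.18 (limma adjusted p = 0.382), and its unadjusted p was under 0.05 in 17 of 25 alternatives. The Kv3 channel genes Kcnc1 and Kcnc2, which let these cells repolarise quickly, differed by 0.06 and 0.19 without passing. The GABA-synthesising enzymes Gad1 and Gad2 differed by -0.37 and -0.04, also without passing. Averaged over the tested genes, PGC-1αf/f arrays ran from 0.466 to 0.734 and nPGC-1α arrays from 0.626 to 0.783, so the groups overlapped.

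Among genes of vesicle release, 25 of 29 listed were tested, 3 were higher and 0 lower at an unadjusted p of 0.05 in limma, and the median difference was 0.04. The counts of each list stand beside 3.18% higher and 5.03% lower over all 17597 genes, and no share is read from lists this short. Among the higher genes, Cplx3, a complexin of ribbon synapses and some cortical cells, differed by 0.41 ± 0.12 (limma adjusted p = 0.249) and Unc13a, a priming factor for vesicles, by 0.31 ± 0.13 (limma adjusted p = 0.377). Syt10 had the most negative difference of the list, -0.63 ± 0.29, and did not pass. None of these passed an adjusted p of 0.05.

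Of 11 axon cytoskeleton genes, all tested, 2 were higher and 0 lower, with a median of 0.04. Prph, a neuronal intermediate filament that joins the neurofilaments, differed by 0.80 ± 0.23 (limma adjusted p = 0.232), and its second probe differed by 0.71. Nfasc, which anchors channels at the axon initial segment and at nodes, differed by 0.50 ± 0.18 (limma adjusted p = 0.306), and its 4 probes differed by 0.41 to 0.50. Of 13 calcium-binding genes related to Pvalb in function, 11 were tested, 0 were higher and 1 was lower, with a median of -0.06. The lower one was Calb1, the calcium buffer calbindin of granule cells and other neurons, at -0.27 ± 0.09 (limma adjusted p = 0.29), and its second probe differed by -0.21.

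PGC-1α itself and the factors it works with made up a list of 14 genes. All 14 were tested, 0 passed an unadjusted p of 0.05 in limma in either direction, and the differences ran from -0.18 to 0.13 with a median of 0.00. Esrra and Esrrg, the oestrogen-related receptors, differed by -0.07 and 0.11, Nrf1 by 0.07 and Gabpa by -0.08.

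**Figure D4:**
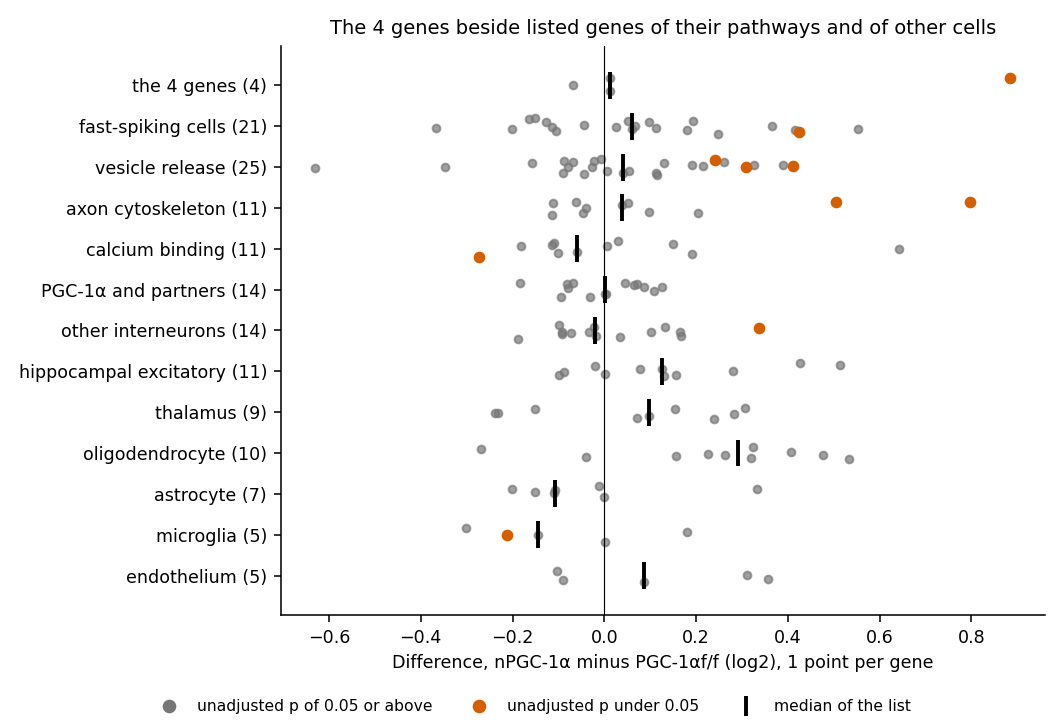
Differences between nPGC-1α and PGC-1αf/f arrays (log2) for each tested gene of 13 lists, 1 point per gene, with the number tested in brackets, a black bar at the list's median and orange points for an unadjusted p under 0.05. The medians run from -0.14 in microglia to 0.29 in oligodendrocytes, and that of the 4 genes is 0.01.

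Markers of other cells and regions were read for the same arrays. Of 15 genes of other interneurons, 14 were tested, 1 was higher and 0 lower, with a median of -0.02, and the higher one was Reln, a secreted matrix protein, at 0.34 ± 0.13 (limma adjusted p = 0.367, 4 and 3 arrays). Its second probe was dim, with a mean level of -5.97 that lay within the range of the nPGC-1α detection floors. That probe differed by 1.84 ± 0.76 (limma adjusted p = 0.378). The list medians were 0.13 for 11 hippocampal excitatory genes, 0.10 for 9 thalamic genes, 0.09 for 4 neocortical genes, -0.02 for 3 cerebellar genes, -0.15 for 5 medial habenula genes and -0.02 for 9 choroid plexus genes, with 0 genes of these 6 lists past an unadjusted p of 0.05 in limma. The mean level of the choroid plexus genes ranged widely, with -2.74 to 0.18 for PGC-1αf/f and -2.27 to 0.92 for nPGC-1α. That of the thalamic genes was -1.37 to -0.78 and -1.06 to -0.94. Although the labels give the cell type as neuron, all 10 oligodendrocyte, 7 astrocyte and 5 endothelial genes had the mark on all 10 arrays. So did the 5 microglial genes that were tested, of 6 listed. The oligodendrocyte genes had a median difference of 0.29 with mean levels of 1.09 to 1.57 (PGC-1αf/f) and 1.11 to 1.88 (nPGC-1α), and 0 of 10 passed an unadjusted p of 0.05 in limma. The medians were -0.11 for astrocytes, 0.09 for endothelium and -0.14 for microglia, in which Tmem119, a microglial membrane protein, differed by -0.21 ± 0.09 (limma adjusted p = 0.407). The part of these lists in the Syt2 differences was not tested.

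Within slide 1, which held replicates 1 to 4 of both groups, Pvalb differed by -0.01, the 2 Syt2 probes by 1.02 and -0.35, and the Nefh probes by 0.04 and 0.09. There the PGC-1αf/f arrays all lay in slide row 1 and the nPGC-1α arrays all in row 2, so group and row cannot be told apart. Both arrays of slide 2 lay in row 1. On slide 1 the replicate number was also the slide column in both groups, so number and column cannot be told apart there. Between the 2 arrays of slide 2, replicate 5 of each group, the same probes differed by 0.10, 0.34, 0.03, -0.10 and -0.07, with no error to set them against. With the class of Y-linked signal as a block the first Syt2 probe differed by 1.16 ± 0.28 (limma adjusted p = 0.286). Among the 6 arrays without Y-linked signal (4 PGC-1αf/f, 2 nPGC-1α) it differed by 0.80.

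The genes were also set against each other and against Ppargc1a across arrays, as deviations from the mean of each group. Of 10 relations, 0 passed an adjusted p of 0.05 by Pearson's r, with 1 unadjusted p under 0.01 and 1 more under 0.05. The closest was Cplx1 with Nefh over the 6 arrays that measured both (r = 0.925, rho = 0.886, exact permutation p = 0.00833 and 0.0333, adjusted 0.0833 and 0.167), and r was 0.911 without the 2 arrays farthest from the median. After quantile normalisation r was 0.874 and rho 0.6 (exact permutation p = 0.0431 and 0.242), with r at 0.17 without the 2 farthest arrays. Over all 10 arrays with the outlier spots kept, r was 0.505 (permutation p = 0.135). Ppargc1a with Cplx1 had r = 0.84 and rho = 0.886 over 6 arrays (exact permutation p = 0.0278 and 0.0333, adjusted 0.139 and 0.167), and r was 0.40 without the 2 farthest arrays. After quantile normalisation r was 0.686, and 0.889 without the 2 farthest arrays, and with the outlier spots kept it was 0.534 over 10 arrays (permutation p = 0.111), so the values of both Cplx1 relations depend on which few arrays enter and how they are scaled. Over 10 arrays Ppargc1a had r = 0.427 and rho = 0.503 with Pvalb (permutation p = 0.218 and 0.144), r = -0.426 and rho = -0.309 with Syt2 (permutation p = 0.219 and 0.388), and r = 0.379 and rho = 0.418 with Nefh (permutation p = 0.275 and 0.229), with an adjusted p of 0.392 for each r. Without the 2 farthest arrays these r were 0.541, -0.267 and 0.442. Within slide 1, over 8 arrays, they were 0.417, -0.333 and 0.545 (exact permutation p = 0.3, 0.421 and 0.163), and Cplx1 had only 4 arrays there. The other 5 pairs of the 4 genes had r between -0.589 and 0.493, with adjusted permutation p of 0.392 to 0.786. The highest of them, Syt2 with Nefh, became r = 0.726 and rho = 0.818 after quantile normalisation (permutation p = 0.0146 and 0.00556, adjusted 0.146 and 0.0556). Without the 2 farthest arrays, PGC-1αf/f replicates 1 and 2, its r was 0.286, and 0.496 after quantile normalisation. Within slide 1 its r was 0.515, and 0.714 without those 2 arrays.

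Outside the 4 genes, those whose deviations were most alike over 10 arrays were sought among 13584 genes, as a description. For Pvalb they were Pcdhb16 (r = 0.973), Baz2b (0.95) and Mt3 (0.939). For Syt2, with 13585 genes searched, they were 4930444F02Rik (0.969), Bcl11b (0.969) and Scfd2 (0.966). The Syt2 probe itself was not well above background on PGC-1αf/f replicate 1, its lowest array, while the searched genes were so on all 10 arrays. For Nefh they were Ampd2 (0.965), Epha4 (0.96) and Lynx1 (0.958), and for Cplx1, with the outlier spots kept and 13585 genes searched, 9330175M20Rik (0.942), Thsd7a (0.929) and Pikfyve (0.919). The likeness of Pcdhb16 to Pvalb dropped to 0.609 after quantile normalisation and that of Lynx1 to Nefh to 0.665. All of these values share the arrays' scaling and were picked as the highest of the search, so nothing is read from their size.

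**Figure D5:**
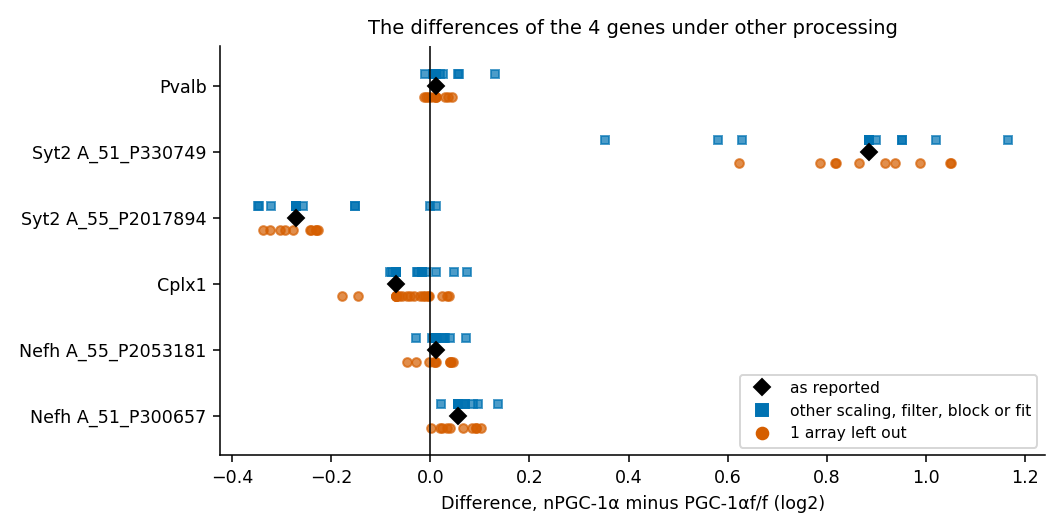
Differences of the 6 probes (log2, nPGC-1α minus PGC-1αf/f) as reported (black), under other scalings, filters, blocks and fits (blue) and with 1 array left out (orange). Pvalb, Cplx1 and Nefh stay between -0.18 and 0.14, the first Syt2 probe runs from 0.35 to 1.16 and the second Syt2 probe from -0.35 to 0.01.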

How the data were processed

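Total RNA of mouse hippocampus, labelled with Cy3, was hybridised to Agilent mouse expression arrays, 5 per group. Group and replicate number of each array come from its label. The deposited scanner files hold a processed intensity for each spot, which Feature Extraction 11.5.1.1, per the file headers, had corrected for background and spatial trends but not normalised between arrays. They also hold median pixel and local background intensity values. Log2 values of 41606 probes, made by the authors with GeneSpring, are deposited as a further table, which served as an alternative.

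Control spots and outlier spots were excluded. There were 0 saturated gene spots. The log2 processed intensity was averaged per probe, and the log2 of the array's 75th percentile was subtracted. A probe entered the fit if 1 group or both had it well above background on each of the 5 arrays and each group kept 3 or more values. The fit was made in R 4.3.3 with limma 3.58.1 (lmFit, eBayes, two-sided), with Benjamini-Hochberg adjustment over all probes tested. Accessions named 33767 probes (59.7%) through RefSeq (GRCm38.p6), which is not the arrays' design build. A gene was represented by its tested probe with the highest mean level. The number of arrays limits the precision. Exact permutation tests for 5 against 5 arrays cannot go below 0.00794. Tests were also run on simulated data, which for limma were drawn from the means and spreads of these probes.

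Named genes were all probes of the 4 genes, Ppargc1a, Syt1, Cplx2, Nefl, Nefm, up to 4 genes of each list with an unadjusted p under 0.05, and the 3 most alike genes. 1 gene that this rule names is not reported here. Syt10, the potassium channel, GABA enzyme and partner genes given as examples were chosen after their values were seen. The genes, lists and tests were chosen with earlier results of these data known. The alternatives were other scalings, a normexp correction (offset 50), the authors' values, filters, blocks by slide, replicate number and Y-linked class, array weights, a trended robust variance and the omission of single arrays. Keeping outlier spots in further Cplx1 fits and in the correlations was chosen after seeing the data. Python 3.11.15, pandas 2.3.3 and scipy 1.17.1 were used.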

Additional observations from a re-analysis of the deposited data

Results flagged for a closer look

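Of 72 groups of 5 arrays examined, 7 held an array far from the other 4 by Dixon's test, where chance gives about 3.6. None was a probe of Pvalb, Syt2, Cplx1 or Nefh. For single genes, Nefm by probe A_55_P2723589 was 2.90 on PGC-1αf/f replicate 4 and 2.49 to 2.58 on the other 4 arrays, and Tmem119 was -0.065 on nPGC-1α replicate 5 against 0.137 to 0.197. For mean levels of lists, the axon cytoskeleton genes were at 1.82 on PGC-1αf/f replicate 2 against 2.03 to 2.11, and at 2.28 on nPGC-1α replicate 1 against 2.10 to 2.13. The medial habenula genes were at -0.66 on PGC-1αf/f replicate 2 against -2.18 to -1.98. The choroid plexus genes were at 0.92 on nPGC-1α replicate 3 against -2.27 to -1.75. The microglial genes were at 1.15 on PGC-1αf/f replicate 5 against 1.47 to 1.55.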

How the results depend on the processing

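No probe of the 4 genes passed an adjusted p of 0.05 under any alternative run. Syt2 kept the direction of its first probe in all 25 alternatives, from 0.31 (the mean of its 2 probes) to 1.16, and from 0.62 to 1.05 when each array was left out. The filter that asks for the mark on all 10 arrays is not among them, because it drops both Syt2 probes. The alternatives reuse the same arrays and a probe that passed the filter only through its higher group, so nothing is read from their agreement. The second probe was -0.27 as reported and -0.35 to 0.01 in its alternatives. The 2 probes thus mostly went opposite ways, and no direction is read for Syt2. The values near 0 changed sign with small settings, and the cause was not tested. Pvalb was -0.0099 on slide 1 alone and -0.012 to 0.045 when each array was left out. Cplx1 was 0.010 after quantile normalisation, 0.047 after normexp and 0.074 in the authors' values. It was -0.179 to 0.034 when each array was left out, and with the outlier spots also kept the value became 0.024 on leaving out PGC-1αf/f replicate 5, 0.038 on leaving out nPGC-1α replicate 3 and -0.068 to -0.0033 otherwise. Nefh was -0.029 with array weights and -0.048 to 0.046 when each array was left out. The second Syt2 probe was 0.011 after normexp. Ppargc1a was -0.037 on slide 1 alone, -0.034 with the Y-linked class as a block and -0.024 to 0.040 when each array was left out. Syt1 was 0.108 after quantile normalisation, 0.038 after normexp, 0.097 in the authors' values and -0.075 to 0.035 when each array was left out. Nefm was 0.055 after normexp and -0.093 to 0.0099 when each array was left out. The correlation of Pvalb with Cplx1 was -0.149 and that of Ppargc1a with Nefh -0.048 after quantile normalisation, and that of Syt2 with Cplx1 was 0.011 with the outlier spots kept. The unadjusted p of Pthlh, Unc13a and Reln was under 0.05 in 17 of 25 alternatives each, that of Tmem119 in 13, those of Cplx3 and Calb1 in 24 and those of Prph and Nfasc in 25. Over all probes, the count at an unadjusted p of 0.05 was 4662, 1823 after normexp and 10748 with no filter on dim probes, and the count at an adjusted p was 1, 40 with median scaling, 10 with array weights, 4619 with no filter, 0 to 3 when each array was left out and 0 or 1 otherwise.

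With the replicate number as a block the differences were 0.01 for Pvalb, 0.88 for Syt2, -0.07 for Cplx1 and 0.01 for Nefh, with limma adjusted p = 0.95, 0.27, 0.776 and 0.965. Syt1 turned to 0.020 with this block. Same-numbered arrays correlated at 0.0776 to 0.356 in their deviations, and replicates 1, 2 and 5 but not 3 and 4 correlated best with their own number, so the numbers were not taken to pair the arrays. On slide 1 same-numbered arrays also shared a slide column, and the part of position in these values was not tested. The block gave 6487 probes at an unadjusted p of 0.05 and 0 at an adjusted one. For Cplx1, slide 1 alone could not be fitted because 2 arrays per group remained, and with the outlier spots kept it gave -0.03. The number of arrays, and for Syt2 the signal over background, limit these results.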
